A study of Drosophila melanogaster with 12 samples.

Results

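The genes described here are the regulators and executioners of apoptosis in Drosophila: the killer genes rpr, hid and skl, the inhibitors Diap1 and Diap2, the adaptor Dark, the initiator caspase Dronc and the effector caspases Drice and Dcp-1. They were chosen by name, as the probe sets annotated to 1 of these 9 genes by current symbol or synonym. Of the 9 genes, 5 are named by a probe set in the annotation used here: skl, Diap2, Dronc, Dark and Dcp-1. They have 6 probe sets among the 18769 tested, since Dark has 2. rpr, hid, Diap1 and Drice have no probe set named here and were not analysed. The inhibitor with the widest role (Diap1), the main effector caspase (Drice) and the most studied killer genes are therefore missing from what follows, and rpr lies next to skl in the RefSeq gene order.

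All 12 arrays came from Kc167, an established Drosophila line that was derived from embryos and resembles blood cells. Cells received medium conditioned with UPD (Unpaired, the principal ligand of the JAK/STAT pathway) or Mock conditioned medium for 30 min, and Schneider's medium afterwards. RNA was taken at 2, 4 or 10 h after the conditioned medium was first added, which gives 6 groups: UPD 2 h, Mock 2 h, UPD 4 h, Mock 4 h, UPD 10 h and Mock 10 h. Each group has 2 samples labelled as biological replicates, and nothing says whether they came from cultures grown apart, so p-values measure only the spread between these samples. All groups share the line, the medium before and after the exposure, and the exchange of medium. The composition of the conditioned media beyond their names is not given, and no group without conditioned medium was analysed here.

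In Drosophila, caspases are held in check by inhibitor of apoptosis proteins, of which Diap1 binds Dronc, Drice and Dcp-1, and Diap2 binds Drice and also acts as a ubiquitin ligase in the Imd immune pathway. The proteins of rpr, hid, grim and skl bind these inhibitors through a short N-terminal motif and release the caspases. Dark then assembles with Dronc into the apoptosome, and Dronc cleaves and activates Drice and Dcp-1. Much of this control lies in protein binding and cleavage, which transcript levels do not report, while rpr, hid, grim and skl are known as genes switched on by death signals.

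Levels are the deposited log2 values of 1 probe set, and levels of different probe sets are not set against each other. Replicates differed more at 10 h: over the 9384 probe sets whose mean exceeded the median of all means (above the median level), the median replicate SD reached 0.445 in UPD 10 h and 0.504 in Mock 10 h, and lay between 0.083 and 0.195 in the 4 groups at 2 and 4 h. At 10 h these probe sets were also shifted as a body, with a median UPD minus Mock difference of −0.41, and −0.80 for UPD at 10 h minus UPD at 2 h. Quantile normalization, which gives all arrays 1 distribution, brought these medians to −0.010 and −0.032. The Act5C probe sets for the 3′ end exceeded those for the 5′ end at 10 h by 1.37 and 1.25 in UPD cells and 1.15 and 1.14 in Mock cells, by 0.96 and 0.95 in UPD cells and 1.17 and 0.72 in Mock cells at 4 h, and by 0.71 to 0.89 on the 4 arrays at 2 h. Mock 4 h replicate 1 thus exceeded both Mock arrays at 10 h. The hybridisation spikes of Mock 4 h replicate 2 averaged 8.28, and those of the 11 remaining arrays 9.73 to 10.76. Of 10 blood cell markers, 8 lay above the median level (srp, ush, Pxn, Hml, eater, vkg, Col4a1 and Ppn; not NimC1 and Sr-CI), as did 1 of 2 lamellocyte, 1 of 3 crystal cell, 2 of 3 neuron, 0 of 1 muscle, 1 of 2 fat body and 1 of 1 germ line markers measured. At 10 h 9 of 10 blood cell markers were lower after UPD than after Mock, with a median difference of −1.56 and 4 of 10 called. Of the 3 neuron markers measured, 2 were lower, with a median of −1.34 and 0 called. The part of the 10 h shift, of RNA quality or of these markers in any difference of the death genes was not tested. In a whole culture, fewer cells expressing a gene and less of its RNA per cell cannot be told apart.

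At no time did a death gene pass the test between UPD and Mock. In limma's moderated test, adjusted over all probe sets by the Benjamini-Hochberg method at a threshold of 0.05, 0 of 6 probe sets were called at 2 h, at 4 h and at 10 h, and 0 in the average over the 3 times. Unadjusted p-values under 0.05 numbered 0 of 6 at 2 h, 0 at 4 h, 2 at 10 h (Diap2 and Dark) and 0 in the average. Across the whole array limma called 0.00533% of the 18769 probe sets at 2 h, 0% at 4 h, 1.06% at 10 h (0.954% as lower) and 0% in the average, so a count of 0 among 6 lies at the background. With a variance trend and robust moderation in place of limma's standard moderation, Diap2 and Dark passed at 10 h (adjusted p = 0.0242 each), where that setting called 1899 of all probe sets. The F test of whether the UPD minus Mock difference changed between the 3 times called 0 of 6, against 0% of all probe sets, with adjusted p-values from 0.76 for Diap2 to 1 for the dimmer Dark probe set. Over all probe sets, unadjusted p-values under 0.05 numbered 830 at 2 h, 757 at 4 h, 3237 at 10 h, 2024 in the average and 1671 in the F test.

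Counted by arrays, 1 of 6 death gene probe sets lay above both Mock arrays on both UPD arrays at 2 h (skl) and 4 lay below (Dronc, both Dark probe sets and Dcp-1). The same held for 11.5% of all probe sets above and 31.2% below, and for 44.3% below among the probe sets above the median level. At 4 h 0 of 6 lay clear of Mock in either direction, against 13.9% above and 19% below for all probe sets. At 10 h 0 of 6 lay above and 3 lay below (Diap2, Dark and Dcp-1), against 13.7% above and 24% below for all probe sets and 36.8% below among those above the median level.

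**Figure D1:**
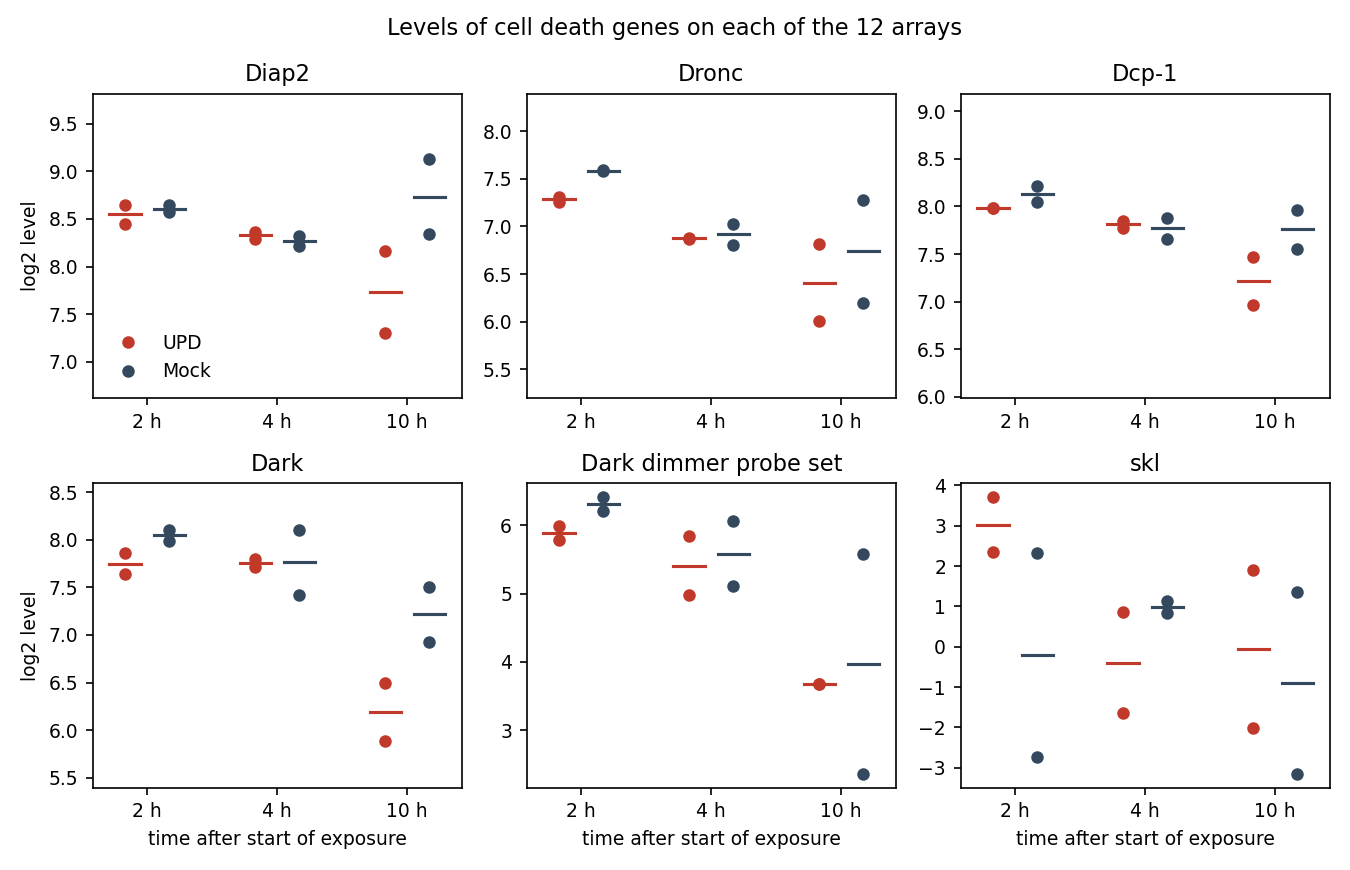
Deposited log2 level (y axis) of the 6 probe sets of skl, Diap2, Dronc, Dark (brighter and dimmer probe set) and Dcp-1 at 2, 4 and 10 h (x axis); each point is 1 array, UPD in red to the left and Mock in dark blue to the right, each bar is the mean of 2 arrays, and each panel has its own scale. The groups lie close together at 2 and 4 h except for skl, and both Dark arrays after UPD at 10 h (5.88 and 6.49) lie below both Mock arrays (6.93 and 7.51).

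Diap2 (gene ID 36748) encodes the inhibitor that binds Drice. Its level at 2 h was 8.45 and 8.65 on the UPD arrays, against 8.65 and 8.57 on the Mock arrays. Its level at 4 h was 8.37 and 8.29 after UPD, against 8.22 and 8.32 after Mock. Its level at 10 h was 7.31 and 8.16 after UPD, against 9.13 and 8.34 after Mock. The arrays overlapped at 2 and 4 h, and at 10 h both UPD arrays lay below both Mock arrays, UPD replicate 1 being the lowest and Mock replicate 1 the highest of all 12. The UPD minus Mock difference was −0.060 at 2 h and 0.062 at 4 h (limma adjusted p = 1 each), with 95% intervals of −0.99 to 0.87 and −0.87 to 0.99 that include a change of nearly 2-fold either way. These intervals use 1 variance for all times and so carry the spread at 10 h. The replicate SDs of Diap2 were 0.05 to 0.14 at 2 and 4 h, and 0.60 (UPD) and 0.56 (Mock) at 10 h. At 10 h UPD stood at 0.499-fold of Mock (95% interval 0.262 to 0.952-fold, n = 2 arrays a group; SE 0.40 on the log2 scale), which did not pass (limma adjusted p = 0.253, and 0.0242 to 0.843 over its alternatives). This value depended on both arrays numbered 1: the log2 difference was −0.58 without UPD replicate 1 and −0.61 without Mock replicate 1. Quantile normalization gave −0.49 (limma adjusted p = 0.174).

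skl (sickle, gene ID 40016), the killer gene with a probe set here, was dim, with a mean level under the median of all probe sets. Its 2 h values were 2.34 and 3.71 on the UPD arrays, against −2.73 and 2.33 on the Mock arrays. The 4 h values were 0.86 and −1.65 after UPD, against 0.82 and 1.12 after Mock. The 10 h values were −2.02 and 1.90 after UPD, against −3.16 and 1.37 after Mock. Replicates lay more than 1 log2 unit apart in every group but Mock 4 h, and at 2 h the lower UPD array and the higher Mock array nearly met. The differences were 3.22 ± 2.17 (SE) at 2 h, −1.37 at 4 h and 0.83 at 10 h, with limma adjusted p-values of 1, 1 and 0.905. The 95% interval at 2 h ran from −1.82 to 8.27, so this probe set measures neither a rise nor its absence.

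Dark encodes the fly counterpart of Apaf-1, the scaffold of the apoptosome. Its brighter probe set (gene ID 36914) gave 7.86 and 7.64 on the UPD arrays at 2 h, against 8.11 and 7.99 on the Mock arrays. The 4 h arrays gave 7.72 and 7.80 after UPD, against 7.42 and 8.10 after Mock. The 10 h arrays gave 5.88 and 6.49 after UPD, against 6.93 and 7.51 after Mock. The UPD arrays lay below Mock at 2 h by a small margin, between the Mock arrays at 4 h, and well below at 10 h. The differences were −0.30 at 2 h and −0.0041 at 4 h (limma adjusted p = 1 each). At 10 h the difference was −1.03 ± 0.39 (SE; 95% interval −1.93 to −0.13), which is 0.490-fold, and did not pass (limma adjusted p = 0.226, and 0.0242 to 0.832 over its alternatives). Quantile normalization brought it to −0.39 (limma adjusted p = 0.548).

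The other, dimmer probe set of Dark was also lowest at 10 h but overlapped there between the media. On the 2 h arrays it read 5.99 and 5.78 after UPD, against 6.42 and 6.21 after Mock. On the 4 h arrays it read 4.98 and 5.84 after UPD, against 5.11 and 6.07 after Mock. On the 10 h arrays it read 3.68 and 3.67 after UPD, against 2.36 and 5.58 after Mock. The Mock replicates at 10 h lay on either side of the UPD arrays, and the difference of −0.29 ± 0.93 (SE; limma adjusted p = 0.925) turned to 0.16 after quantile normalization. Its 95% interval, −2.47 to 1.88, includes the 10 h difference of the brighter probe set.

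Dronc (gene ID 39173) encodes the initiator caspase, the counterpart of caspase-9. Its level in UPD cells at 2 h was 7.31 and 7.26, against 7.58 and 7.59 in Mock cells. After 4 h the level was 6.88 and 6.87 in UPD cells, against 6.81 and 7.03 in Mock cells. After 10 h the level was 6.00 and 6.81 in UPD cells, against 7.28 and 6.20 in Mock cells. Replicates at 2 h differed by under 0.1, and UPD lay below Mock there by more than that. At 4 and 10 h the arrays overlapped. The differences were −0.30 ± 0.44 (SE) at 2 h, −0.043 at 4 h and −0.33 at 10 h, and none passed (limma adjusted p = 1, 1 and 0.784). Quantile normalization gave −0.18 at 2 h and turned the sign at 10 h, to 0.30.

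Dcp-1 (gene ID 37729) encodes an effector caspase that cuts the final substrates together with Drice and also acts in autophagy of the ovary. Both UPD arrays at 2 h gave 7.98, against 8.21 and 8.05 on the Mock arrays. Those at 4 h gave 7.77 and 7.85 after UPD, against 7.66 and 7.88 after Mock. Those at 10 h gave 6.96 and 7.47 after UPD, against 7.96 and 7.56 after Mock. UPD lay below Mock at 2 and 10 h without overlap, with differences of −0.15 and −0.54, and overlapped Mock at 4 h, where the difference was 0.041. None of the differences passed (limma adjusted p = 1 at 2 and 4 h and 0.453 at 10 h), and the 95% interval at 10 h ran from −1.28 to 0.19. Relative to the median of probe sets above the median level the 10 h difference was −0.13, and after quantile normalization it was 0.013. At 2 h the median of those probe sets was −0.11, and the Dcp-1 difference after quantile normalization was −0.030.

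Set beside the shift of the array at 10 h, the death genes lay on both sides of it. Relative to the median of the probe sets above the median level, Diap2 stood at −0.59 and the brighter Dark probe set at −0.62, Dronc at 0.082 and Dcp-1 at −0.13. The dimmer Dark probe set lay above that median, so the probe sets of Dark fell on opposite sides of it. The values of Dronc and Dcp-1 were smaller than their SE. None of these probe sets passed at 10 h, and the differences between these genes were not tested.

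**Figure D2:**
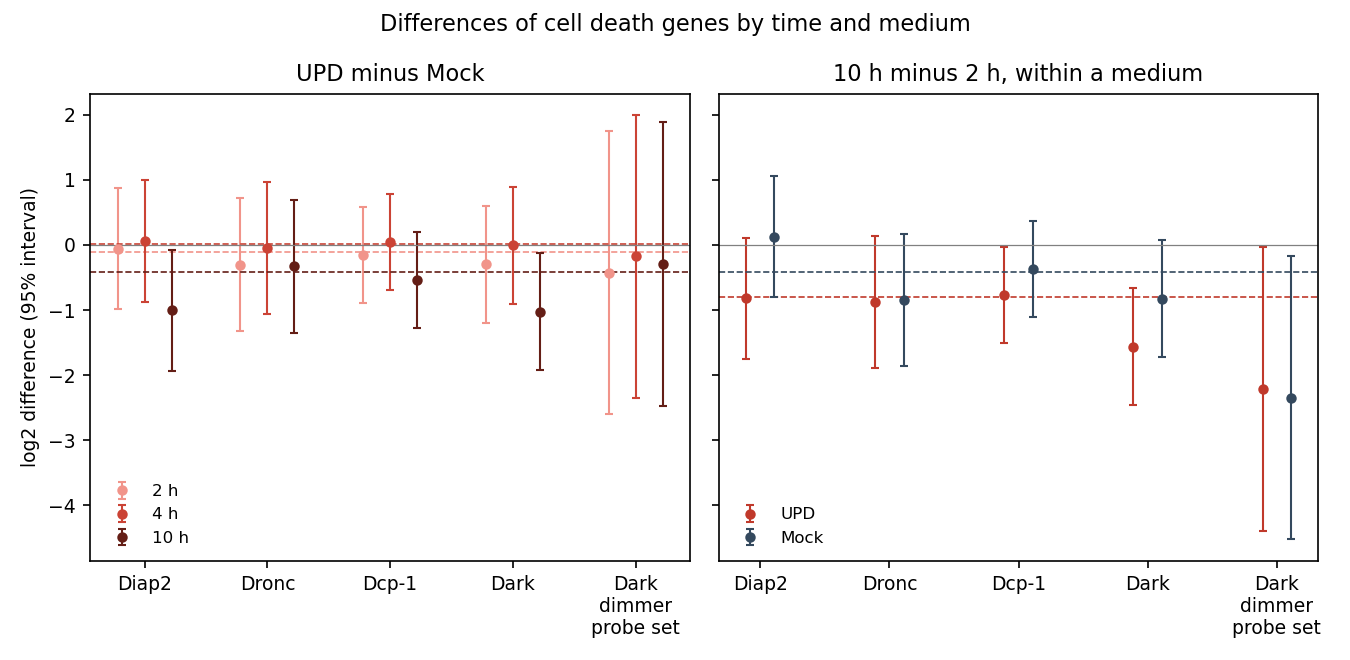
Log2 differences (y axis) of Diap2, Dronc, Dcp-1 and both Dark probe sets (x axis groups), with 95% intervals from limma; the left panel shows UPD minus Mock at 2, 4 and 10 h and the right panel 10 h minus 2 h within UPD and within Mock, and dashed lines mark the median of the probe sets above the median level. At 10 h the UPD minus Mock intervals of Diap2 (−1.93 to −0.071) and Dark (−1.93 to −0.13) lie below 0, and both include the dashed line at −0.41.

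Over time, Dark was lower at 10 h than at 2 h in UPD cells, and this is the single call of a death gene. Its brighter probe set averaged 6.19 ± 0.43 at 10 h and 7.75 ± 0.16 at 2 h after UPD (SD, n = 2 each). It fell by 1.56 ± 0.39 log2 units (SE; 95% interval −2.46 to −0.66), which is 0.339-fold (limma adjusted p = 0.0474, and 0.000139 to 0.422 over 18 alternatives, 6 of which passed). In the same comparison 9.46% of all probe sets were called, 8.46% as lower, and 16.6% of those above the median level were called lower, so 1 of 6 lies near the background. The difference relative to the median of those probe sets was −0.76. In Mock cells the brighter Dark probe set was also lower, at 7.22 ± 0.41 at 10 h and 8.05 ± 0.08 at 2 h (SD), and was not called. The F test of its UPD minus Mock difference between times did not pass (limma adjusted p = 0.793). In UPD cells at 10 h minus 2 h, 6 of 10 blood cell markers were called lower, with a median of −1.86. So were 2 of 3 neuron markers (elav and brp), with a median of −2.52 over the 3. The lamellocyte, crystal cell, muscle, fat body and germ line markers held 0 calls. The part of the markers in the result was not tested. The call ended with quantile normalization, where the difference was −0.50 (limma adjusted p = 0.422), with the arrays of the compared times alone (0.134) and with the mean of both Dark probe sets (0.097). It also ended without any 1 of 9 arrays, namely each array at 2 and 4 h and UPD 10 h replicate 1 (0.0653 to 0.222). It held without UPD 10 h replicate 2 (0.0416) and without either Mock array at 10 h (0.0325).

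No other death gene was called at 10 h minus 2 h after UPD in the fit of all probe sets. Diap2 passed with a variance trend and robust moderation (limma adjusted p = 0.0482), and Dcp-1 passed among the probe sets above the median level alone (0.0421). The differences were −0.82 for Diap2, −0.88 for Dronc, −0.76 for Dcp-1, −2.21 for the dimmer Dark probe set and −3.09 for skl, with limma adjusted p-values of 0.243, 0.253, 0.171, 0.179 and 0.423. All 6 probe sets had both 10 h arrays below both 2 h arrays, as did 38% of all probe sets and 66.9% of those above the median level. Diap2, Dronc and Dcp-1 lay close to the median shift of −0.80 (−0.015, −0.074 and 0.038 relative to it), and after quantile normalization Diap2 was at −0.00095, Dronc at 0.17 and Dcp-1 at 0.15. Between 4 h and 2 h after UPD 0 of 6 were called, against 0.0107% of all probe sets. Of the 6, 4 lay lower without overlap (skl, Diap2, Dronc and Dcp-1), against 37.3%.

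In Mock cells 0 of 6 were called between 4 h and 2 h or between 10 h and 2 h, against 0% of all probe sets in both. At 10 h minus 2 h the Mock differences were −0.83 for Dark (limma adjusted p = 0.373), −2.35 for its dimmer probe set (0.323), −0.85 for Dronc (0.422), −0.37 for Dcp-1 (0.649), 0.13 for Diap2 (0.931) and −0.70 for skl (0.929). In this comparison 4 of 6 lay lower without overlap (Dronc, both Dark probe sets and Dcp-1), against 31.4% of all probe sets. At 4 h minus 2 h 4 of 6 lay lower without overlap (Diap2, Dronc, Dcp-1 and the dimmer Dark probe set), against 38.4%. Diap2 therefore stood at −0.82 in UPD cells and 0.13 in Mock cells, and the F test of its UPD minus Mock difference between times did not pass (adjusted p = 0.76). The UPD and Mock time courses share no arrays, but UPD minus Mock at 10 h and UPD at 10 h minus 2 h share the UPD 10 h arrays. Over all probe sets, unadjusted p-values under 0.05 numbered 930 for Mock at 4 h, 2704 for Mock at 10 h, 1069 for UPD at 4 h and 5042 for UPD at 10 h, each minus 2 h.

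Ordered by mean level within each gene, UPD 10 h was the lowest of the 6 groups for Diap2, Dronc, Dcp-1 and both Dark probe sets. Mock 2 h was the highest for Dronc, Dcp-1 and both Dark probe sets, and Mock 10 h the highest for Diap2, where it stood at 8.74 ± 0.56 (SD, n = 2), not beyond its spread from Mock 2 h at 8.61 ± 0.05. For Dcp-1 the groups in between, Mock 10 h at 7.76 ± 0.28, Mock 4 h at 7.77 ± 0.16 and UPD 4 h at 7.81 ± 0.06, did not differ beyond their spread. For Dronc the UPD 10 h mean of 6.41 ± 0.57 and the Mock 10 h mean of 6.74 ± 0.76 did not differ beyond theirs.

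As a description across the 12 arrays, Dcp-1 followed Dronc with Pearson's r = 0.915, Diap2 with 0.858 and Dark with 0.840. In both media the probe sets above the median level were lower as a body at 10 h than at 2 h, though Diap2 in Mock cells was not. The correlations include that general drop. Dronc and Diap2 had r = 0.761, Dronc and Dark 0.641, and Diap2 and Dark 0.559. Among 7252 genes above the median level the pattern most like Dcp-1 was that of CG42676 (r = 0.986), followed by CG12159, Cpsf100, Ptpa and ClC-b. Most like Dronc were CG2767 (0.982), Set, CG3803, CG6321 and Dph2, and most like Diap2 were CG5989 (0.981), CG12093, Naa35, beta4GalT7 and NELF-B. Most like Dark were Cep135 (0.990), mop, Dlg5, RhoGAP54D and Gcn2.

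The wider death machinery, 54 measured genes in 8 lists that include the 5 genes above, gave few calls between the media. Between UPD and Mock 0 of the 54 were called at 2 h and 0 at 4 h, where unadjusted p-values under 0.05 numbered 0 and 0, and 1 was called at 10 h (lower), with 17 under 0.05 unadjusted. Over all probe sets 17.2% had an unadjusted p under 0.05 at 10 h, and 26% of those above the median level. The median difference of the 54 was −0.14 at 2 h, −0.0044 at 4 h and −0.52 at 10 h, beside −0.10, −0.025 and −0.18 over all probe sets. For the 46 above the median level the 10 h median was −0.57, beside −0.41 for all probe sets above it, of which 1.88% were called lower. In UPD cells at 10 h minus 2 h 11 of the 54 were called, all lower and all among the 46 above the median level, beside 8.46% of all probe sets and 16.6% of those above the median level called lower. The median was −0.89 (−1.01 for the 46, beside −0.80).

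The call between media at 10 h was Atg2, which encodes a lipid transfer protein needed for autophagosome growth. It stood at 5.24 and 5.52 on the UPD arrays, against 7.40 and 7.32 on the Mock arrays. All other groups lay between 7.31 and 7.73, so the UPD 10 h arrays stood apart from the 10 others. Atg2 fell by 1.97 ± 0.27 log2 units (SE; limma adjusted p = 0.0331), and passed in 6 of 19 alternatives, with adjusted p-values from 5.19e-06 to 0.657. It was lost with the 10 h arrays alone (0.657), passed with quantile normalization (0.0209) and passed in 2 of 12 fits that left out 1 array. Within UPD cells Atg2 fell by 2.16 at 10 h relative to 2 h (limma adjusted p = 0.0128), which held in 15 of 18 alternatives.

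By role, the inhibitor list showed 0 of 3 measured genes called at 10 h between media, Diap2 being the median. For all lists, the background at 10 h was a median of −0.18 over all probe sets, of which 1.06% were called. It was −0.41 over those above the median level. Bruce, a very large ubiquitin-conjugating inhibitor, differed by −2.24 (limma adjusted p = 0.109) and Det, the fly survivin-like gene, by 0.43 (0.581). Among 5 measured caspases 0 were called, with a median of −0.33: Dredd, the caspase of Imd signalling, differed by −0.79 (0.3) and Strica, which has a long prodomain rich in serine and threonine, by −0.27 (0.74). Both measured killer genes, skl and grim, lay under the median level, and grim differed by 3.10 (limma adjusted p = 0.457). In the apoptosome and Bcl-2 list 0 of 3 were called between media, with a median of −1.43: the Bcl-2 family gene Debcl differed by −1.43 (0.104) and its relative Buffy by −3.01 (0.104).

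Among 5 measured caspase substrate and nuclease genes 0 were called between media at 10 h (median −0.56, 3 of 5 below 0). AIF, a mitochondrial flavoprotein gene, differed by −0.77 (limma adjusted p = 0.26), and the relatives of the DNA fragmentation factor Drep4 by 0.37 (0.719) and Drep1 by −0.56 (0.458). Of 15 upstream regulators 0 were called (median −0.47, 13 of 15 below 0, range −2.42 to 0.73). The median over all probe sets was −0.18, so most of them lay below 0 too, and over those above the median level it was −0.41. Whether any list departs from these was not tested. The brightest, eIF3m (Tango7), a translation factor subunit that promotes Dronc activity, differed by −0.11 (limma adjusted p = 0.917), p53 by −0.47 (0.604), the checkpoint kinase gene lok by −0.76 (0.354), and wgn, a receptor for the TNF-like ligand Eiger, by −1.49 (0.0709). Of 6 engulfment genes 0 were called (median −0.51), with drpr, the receptor for dying cells, at −1.39 (limma adjusted p = 0.0686), its adaptor gene ced-6 at −0.74 (0.357), Shark at −1.31 (0.125), crq at −0.27 (0.785) and Ced-12 at −0.098 (0.927). Of 15 autophagy genes 1 was called (Atg2, median −0.55, 12 of 15 below 0). Atg8a, whose protein coats autophagosomes, differed by 0.012 (limma adjusted p = 0.994), Atg3 by −0.49 (0.525), Atg13 by −0.50 (0.616) and Atg18a by −1.24 (0.109).

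The 11 genes called lower at 10 h than at 2 h in UPD cells came from 6 of the 8 lists. They were Dark and Debcl of the apoptosome and Bcl-2 list, Bruce of the inhibitors, AIF, the upstream regulators mei-41 and Traf4, the engulfment gene drpr, and the autophagy genes Atg1, Atg2, Atg4a and Atg17. The killer gene list (2 measured, both dim) and the caspase list (5 measured) held 0 of them. Called were 2 of 3 measured genes in the apoptosome and Bcl-2 list, 1 of 3 inhibitors and 1 of 5 substrate and nuclease genes. The counts were 2 of 15 for upstream regulators, 1 of 6 for engulfment and 4 of 15 for autophagy. Of all probe sets above the median level 16.6% were called lower, and whether any list departs from that share was not tested. Bruce fell by 2.84 (limma adjusted p = 0.0327) and Debcl fell by 1.81 (0.0311). The gene of the ATR family checkpoint kinase, mei-41, fell by 2.95 (0.0253). The engulfment receptor gene drpr fell by 1.80 (0.0196), and Atg1, the kinase that starts autophagy, fell by 1.72 (0.0229). Relative to the shift of −0.80 the differences were −2.04 for Bruce, −2.15 for mei-41, −1.01 for Debcl, −0.99 for drpr and −0.92 for Atg1. After quantile normalization drpr (0.0455), Atg1 (0.0448) and Atg2 (0.0361) still passed, and the other 8 did not. With the arrays of the compared times alone none of the 11 passed (adjusted p-values from 0.0931 to 0.158).

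**Figure D3:**
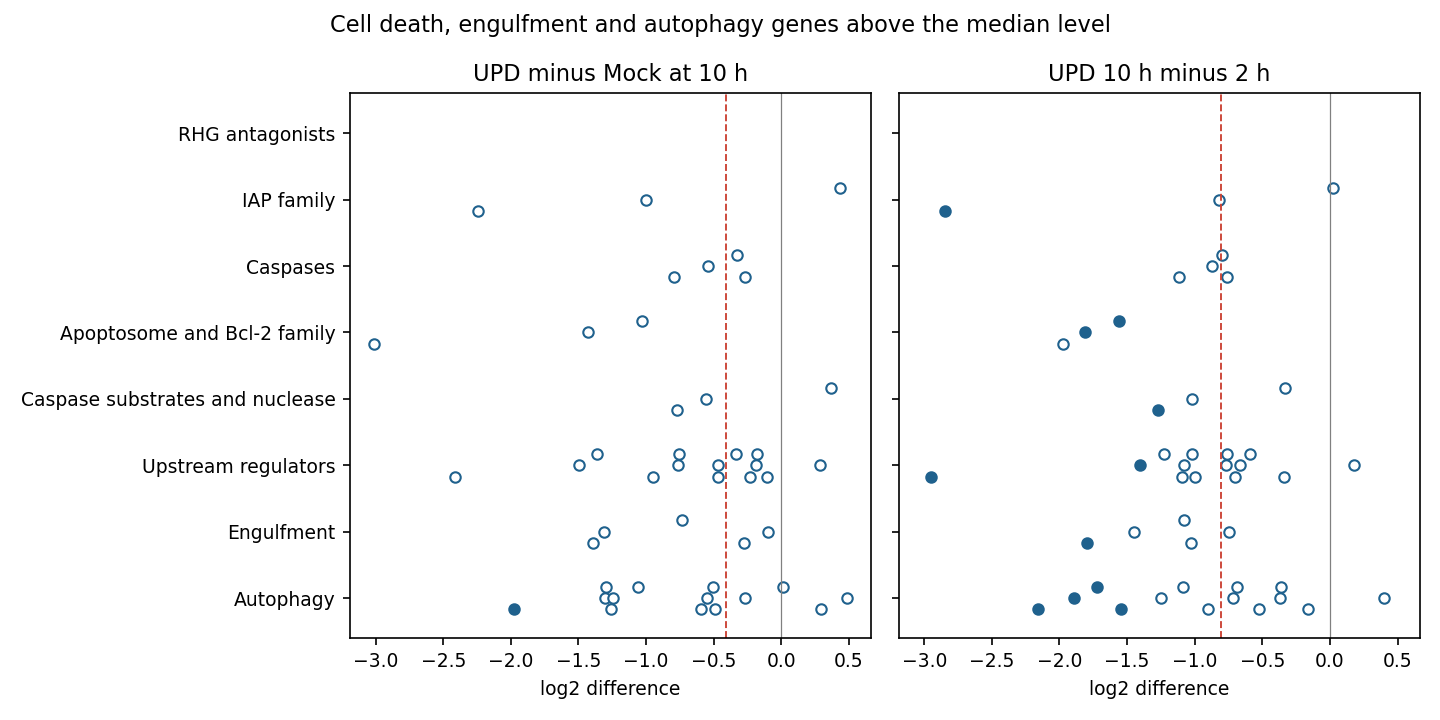
Log2 difference (x axis) of 46 cell death and autophagy genes above the median level, by list (y axis); each point is 1 gene, UPD minus Mock at 10 h in the left panel and UPD 10 h minus UPD 2 h in the right panel, filled where limma's adjusted p is under 0.05, and the dashed red line is the median of 9384 probe sets. One point is filled on the left (Atg2 at −1.97) and 11 on the right, all lower than 0; the row of killer genes is empty because its measured members are dim.

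The ligand's own effect was looked for in dome, the UPD receptor gene and a known target of the pathway. After 4 h the level of dome was 8.59 and 8.54 in UPD cells, against 7.64 and 7.65 in Mock cells. The difference, 0.92, did not pass (limma adjusted p = 1), nor did those of 0.53 at 2 h (1) and −0.98 at 10 h (0.161). UPD lay above Mock on every array at 2 and 4 h and below it on every array at 10 h. Socs36E, the other target looked for, has no probe set named here. At 4 h all 6 death gene probe sets overlapped between UPD and Mock. Of all probe sets, 13.9% lay above and 19% below without overlap at that time, and most overlapped too.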

How the data were processed

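Biotinylated cRNA from 1 µg total RNA of 12 Kc167 samples was hybridised to Affymetrix arrays, per the labels' protocols. The authors deposited 1 value per probe set and array, used here as log2 values as deposited. The base was inferred from the values. The sources used here do not give the summarisation tool or the normalization. The 6 UPD arrays share a median of 2.327 and the 6 Mock arrays 2.375, and 26.3% to 32.1% of values lie below 0, with no floor and no detection calls. The medians thus follow the medium, and this offset enters every UPD minus Mock difference and every count of arrays that do not overlap between media. Its origin was not tested. The shift of each array to 1 median, given among the alternatives, takes it out.

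Of 18952 rows, 183 controls were left out. Probe sets were named by the platform annotation in GEO, and symbols brought up to date by gene ID in a RefSeq table (Release 6 plus ISO1 MT), used for names and gene order only; 13647 probe sets have 1 gene, 402 several and 4720 none, and 13544 were matched. In R 4.3.3 with limma 3.58.1, 6 group means were fitted to all 12 arrays with empirical Bayes moderation and two-sided p-values. The Benjamini-Hochberg adjustment ran over 18769 probe sets. The number of arrays limits the precision. SE and 95% intervals share 1 variance across times, although replicates at 10 h were more variable. The SE, intervals and p-values at 2 and 4 h therefore carry the spread at 10 h. The test was checked on simulated data with changes in UPD 2 h alone and the same spread at all times. That check does not cover the larger spread at 10 h.

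The members and lists were chosen with earlier results of these data known. All 9 genes are described. Of each other list, genes past the threshold and up to 4 others with the brightest probe sets are named (any other name was picked with its values in view), and the brightest probe set stands for a gene. The rule for genes most alike named Diap1. It was applied to Diap2, Dronc, Dark and Dcp-1 instead, a choice made after the annotation was seen. Alternatives were quantile normalization, a shift to 1 median, a filter at the median level, a variance trend with robust moderation, the replicate number as a block, fits on fewer arrays, a joint adjustment, the mean over probe sets, and leaving out each array. Subtracting the median of probe sets above the median level was added after the data were seen.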

Additional observations from a re-analysis of the deposited data

Results flagged for a closer look

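Some listed genes, and dome, lay on one side of Mock on both UPD arrays at one time and on the other side at another. None of them passed the F test of the difference between times in limma. Groups of 2 arrays allow no check for outlying samples.

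dome differed by 0.53 at 2 h, 0.92 at 4 h and −0.98 at 10 h (UPD minus Mock, log2; limma F adjusted p = 0.389). The other genes above the median level were higher early and lower at 10 h: Dredd by 0.21 at 4 h and −0.79 at 10 h (0.739), AIF by 0.063 at 2 h, 0.17 at 4 h and −0.77 at 10 h (0.7), mei-41 by 0.24 at 4 h and −2.42 at 10 h (0.458), and morgue by 0.053 at 2 h and −0.76 at 10 h (0.888). Atg18a differed by −0.20 at 2 h, 0.088 at 4 h and −1.24 at 10 h (0.559). The median 10 h difference of all probe sets above the median level was −0.41. With quantile normalization the 10 h differences were −0.22 for Dredd, −0.28 for AIF, −0.050 for morgue and −0.36 for dome. Those of mei-41 and Atg18a were then −2.43 and −0.68. The part of the general shift in these changes of side was not tested, and such changes were not counted over all probe sets. In dim probe sets the order was the opposite, with Damm at −3.32 at 2 h and 2.33 at 10 h (0.632) and the dimmer Traf4 probe set at −1.93 at 4 h and 3.73 at 10 h (0.611).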

How the results depend on the processing

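Of 490 member differences recomputed under an alternative, 451 kept their direction and side of the threshold, 22 reversed, 4 came past it and 13 lost it (all of them Dark in UPD cells at 10 h minus 2 h). Replicate numbers are not said to mark a shared day or batch. The replicate differences of 15 pairs of groups correlated from −0.085 to 0.205, 1 of them over 0.1 (Mock 4 h with Mock 10 h). Such correlations cannot show that no batch was shared. With the replicate block, Dark in UPD cells at 10 h minus 2 h was not called (adjusted p = 0.0671) and members called there were 0. Of the 11 listed genes called there, 6 were lost (Dark, Debcl, AIF, Traf4, Atg4a and Atg17), as was Atg2 at 10 h (0.0865); probe sets called were 0 at 2 h, 1 at 10 h, 0 for UPD at 4 h minus 2 h and 723 for UPD at 10 h minus 2 h. UPD minus Mock calls were 1 at 2 h, 0 at 4 h, 199 at 10 h and 0 in the average. Robust moderation with a variance trend made them 4, 6, 1899 (1784 lower) and 351, with 2 members at 10 h (Diap2 and Dark, 0.0242 each). With quantile normalization 10 h gave 578 (406 lower against 179 of 199) and the average 27; with a shift to 1 median 111 (98 lower) and 3; with the filter 1804 (1718 lower) and 152; with arrays of the compared times alone 0 at 2 h and 0 at 10 h; with a joint adjustment 6 at 10 h. Mock at 10 h minus 2 h gave 43 with the filter, 845 with the trend and 1 alone, against 0; UPD at 4 h minus 2 h gave 1 with the filter and 0 with the trend, with 8 arrays and alone, against 2. UPD at 10 h minus 2 h gave 471 (335 lower), 3830, 4020 and 1 with quantile normalization, the filter, the trend and alone, against 1776; members there were 0, 2, 2 and 0, against 1. The F test gave 4, 88 and 299 with quantile normalization, the filter and the trend, against 0. Leaving out 1 array gave 0 to 1 at 2 h, 0 to 468 at 10 h, 0 to 7 in the average, 0 to 84 for Mock at 10 h, 0 to 1 for UPD at 4 h, 1 to 2902 probe sets and 0 to 2 members for UPD at 10 h, and 0 to 1 in the F test. Signs turned for small differences. With quantile normalization Diap2 at 2 h was 0.041, Dronc at 10 h 0.30, Dcp-1 at 10 h 0.013, Dronc and Dcp-1 in UPD at 10 h minus 2 h 0.17 and 0.15, and Dcp-1 in Mock 0.10. With a shift to 1 median Dronc and Dark at 4 h were 0.0071 and 0.046. Less the median, Dronc at 10 h was 0.082 and Dcp-1 in UPD at 10 h minus 2 h 0.038. With 1 array left out, skl ran from −1.43 to 3.09 at 10 h and −3.23 to 1.84 in Mock at 10 h minus 2 h, Diap2 from −0.16 to 0.042 at 2 h and −0.27 to 0.52 in Mock at 10 h minus 2 h, Dronc from −0.15 to 0.068 at 4 h and −0.87 to 0.21 at 10 h, Dark from −0.34 to 0.34 at 4 h, and Dcp-1 from −0.070 to 0.15 at 4 h. The cause of these changes was not tested. Signal near background limits skl, grim and Damm, and low signal limits Buffy in UPD cells at 10 h.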

Other observations

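The caspase gene Strica stood lower at 10 h than at 2 h in both media, at −1.11 after UPD (limma adjusted p = 0.0629) and −1.13 in Mock (0.274), and neither passed. Its UPD minus Mock differences were −0.29 at 2 h, 0.16 at 4 h and −0.27 at 10 h (adjusted p = 1, 1 and 0.74). The Bcl-2 family gene Buffy differed at 10 h minus 2 h by −1.98 after UPD (0.153) and by 1.22 in Mock (0.527), again without passing. Buffy was dim: the UPD 10 h arrays read 1.37 and 1.04, under the median mean level of 1.74. Its UPD 4 h replicates lay apart, at 3.88 and 1.54. Atg8a differed by 0.012 between media at 10 h, where Atg2 differed by −1.97.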
